A study of Homo sapiens with 6 samples.

Results

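The 10 genes described here encode the core of the switch that decides whether a cell leaves G1 for S phase. They are the D-type cyclins CCND1 and CCND3, the cyclin-dependent kinases CDK4, CDK6 and CDK2, the kinase inhibitors CDKN1B, CDKN2B and CDKN2C, and the pocket proteins RB1 and RBL2. They were chosen by symbol from the 60605 genes of the deposited table, and each symbol matched 1 row. RNA was sequenced from Huh-7 cells, a human hepatoma line, of which all 6 libraries had been loaded with oleic acid (100 µM, 24 h) and then starved. The 3 control libraries came from cells given DMSO (0 µM pectolinarigenin), and the 3 treated libraries came from cells given the plant flavone pectolinarigenin (100 µM, 24 h). All data are from 1 cell line, and no label says whether the libraries of a group are separate cultures, so the p-values reflect the variation among these libraries alone, which may be technical.

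Cyclin D binds CDK4 or CDK6, and cyclin E binds CDK2. Active kinases phosphorylate the pocket proteins, which release E2F transcription factors and so allow the genes of DNA synthesis to be transcribed. INK4 inhibitors (the CDKN2 genes) hold CDK4 and CDK6, while CIP/KIP inhibitors such as CDKN1B act mainly on CDK2 complexes. Much of this control acts on proteins, through phosphorylation and degradation, which RNA levels do not show.

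Total counts per library ranged from 15140022 to 20311261. On the second principal component, which held 10.2% of the variance, treated library 3 stood apart from treated libraries 1 and 2. Changes without treated library 3 are given for some of the genes and lists. The mitochondrially encoded share of counts was 5.18% to 5.38% in controls and 4.81% to 5.64% in treated libraries. All 8 hepatocyte and hepatoma markers examined were expressed. At an adjusted p under 0.05 (edgeR) 7 of them were lower in treated cells, among them ALB and AFP. The share called lower over all tested genes was 25.3%. APOA1 did not pass (log2 fold change -0.13, SE 0.079; edgeR adjusted p = 0.194). Of 5 fibroblast markers, COL1A2 and DCN were listed at 0 FPKM in every library, and the summed level of the list was 0.36 to 0.49 FPKM in controls and 0.13 to 0.15 in treated cells. Of 4 endothelial markers KDR was at 0, and the summed level of 2.32 to 2.63 against 1.16 to 1.37 FPKM was almost all PECAM1. The leukocyte markers PTPRC, CD3E and CD68 were at or near 0, while LYZ brought the summed level of that list of 5 to 42.6 to 43.0 FPKM in controls and 54.9 to 78.7 in treated cells. LYZ was called higher (log2 fold change 0.67, SE 0.10). CD14 was called lower, with 2.98 FPKM in controls and 1.97 in treated cells (log2 fold change -0.63, SE 0.17; edgeR adjusted p = 0.00558). The part of these markers in the results was not tested.

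Pectolinarigenin moved this gene set in both directions, and mostly by small amounts. CDKN2B rose 2.22-fold, CDK2 fell by 38.4% and CDKN2C fell by 38.3%. CDKN1B and CDK4 rose and RBL2 and CDK6 fell, each by less than 20%. Of the 10 genes 9 passed the minimum of 1 FPKM on average and were tested. At an adjusted p under 0.05 (edgeR) 3 were higher and 4 lower, where 25.3% of all 12829 tested genes were called higher and 25.3% lower, 50.6% in all. CCND1 and RB1 did not pass, and CCND3 was not tested. The median log2 fold change of the 9 was -0.13 against 0.00071 over all tested genes, and the median absolute value was 0.25 against 0.25. In absolute log2 fold change 3.1% of tested genes exceeded CDKN2B, 10.4% exceeded CDK2 and 71.1% exceeded CCND1. Without treated library 3, 3 genes were higher and 3 lower.

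**Figure D1:**
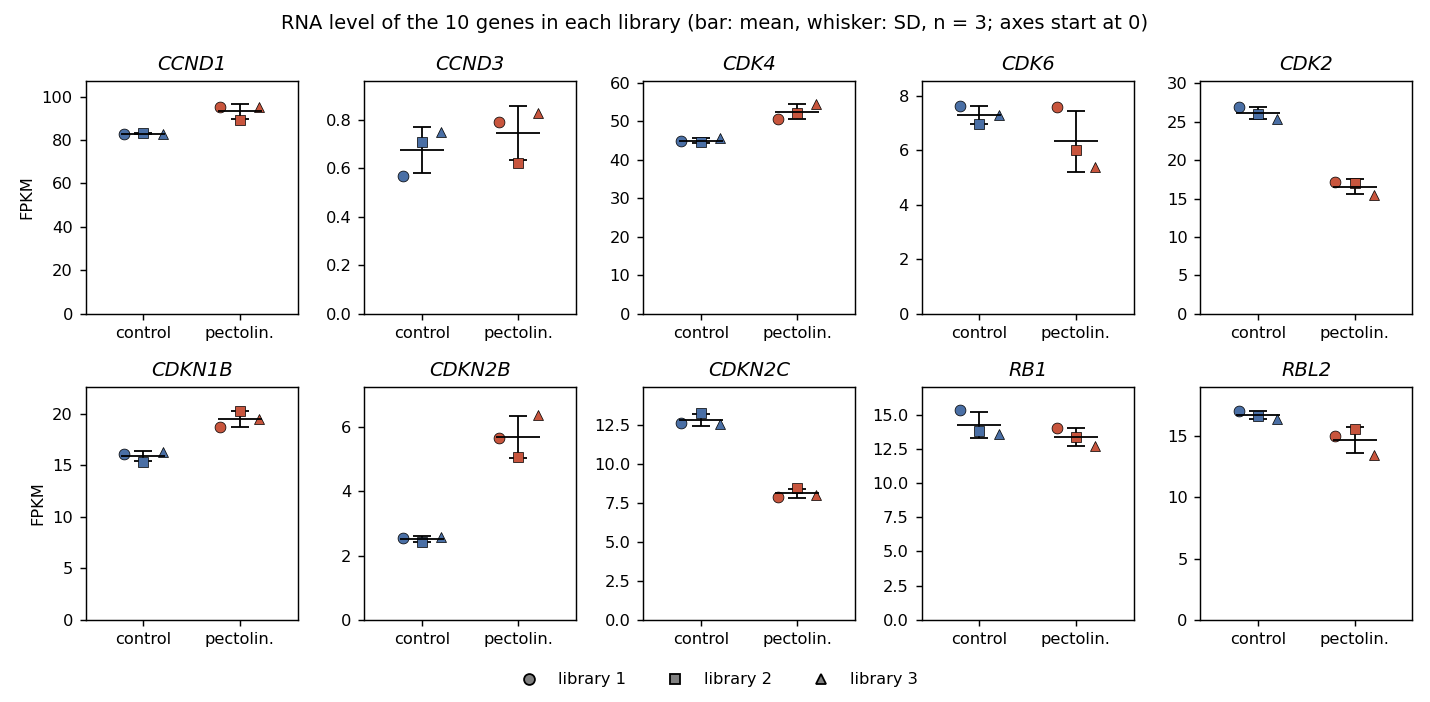
FPKM (counts scaled by gene length and library total, y axis, from 0) of each gene in the 3 control and 3 treated libraries, with the mean (bar) and SD (whisker). The groups lie well apart for CDK2, CDKN2B and CDKN2C, and they overlap for CCND3, CDK6 and RB1.

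The D cyclins of these cells were almost entirely cyclin D1. CCND1 (ENSG00000110092, chromosome 11, 69641087 to 69654474, GRCh38), the regulatory partner that ties CDK4 and CDK6 to growth signals, had 82.9, 83.3 and 82.7 FPKM in control libraries 1 to 3. In the treated libraries it had 95.4, 89.3 and 95.1 FPKM. Every treated value lay above every control value, as was the case in 33.5% of all tested genes, and treated library 2 was the lowest of its group. The log2 fold change was 0.13 (SE 0.054), with a 95% interval of 0.016 to 0.25 for this gene alone, and the adjusted p was 0.0557, so the difference did not pass. It passed in 6 of 16 alternatives, among them scaling by library totals (0.17, adjusted p = 0.0140) and the fit without treated library 2 (0.17, adjusted p = 0.0308). At its 3′ end CCND1 shares 497 exon bases, 10.3% of its own, with LTO1 on the opposite strand, which itself rose (log2 fold change 0.18, SE 0.068; adjusted p = 0.0406).

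CCND3 (ENSG00000112576, chromosome 6, 41934933 to 42050357), the D cyclin better known from blood cells, was detected in every library but lay under the expression minimum. Its counts were 61, 76 and 65 in control libraries and 73, 58 and 97 in treated ones, or 0.57 to 0.75 FPKM against 0.62 to 0.83. The groups overlapped. Tested with no expression filter it changed by 0.14 on the log2 scale (SE 0.18; adjusted p = 0.593), with an error wide enough that a change of the size seen in CCND1 was not detectable at this depth. CCND2 was lower still, with 1 to 6 counts per library. CCND1 thus held 99.1% to 99.3% of the summed D cyclin FPKM in every library.

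The kinases differed from one another. CDK4 (ENSG00000135446, chromosome 12, 57747727 to 57756013), a partner of the D cyclins, had 44.8, 44.6 and 45.8 FPKM in control libraries and 50.8, 52.3 and 54.5 in treated ones. All treated values were above all control values. CDK4 rose 1.14-fold (log2 fold change 0.19, SE 0.055; adjusted p = 0.0113), and the call was lost without control library 2 (0.17, adjusted p = 0.0610). With TSPAN31, which is transcribed from the opposite strand, it shares 1369 exon bases, or 43.2% of its own. Whether the counting used strand is not given in the sources used here. It is therefore not known whether reads from the shared part were counted for CDK4, for TSPAN31 or for neither. The FPKM of CDK4, its share among the kinases and the ratios that include it carry this limit. TSPAN31 itself had 476 to 548 counts in control and 447 to 592 in treated libraries (log2 fold change -0.067, SE 0.077; adjusted p = 0.491).

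CDK6 (ENSG00000105810, chromosome 7, 92604921 to 92836594), the other partner of the D cyclins, had 7.64, 6.97 and 7.30 FPKM in control libraries. The treated libraries had 7.57, 6.01 and 5.38 FPKM, so that treated library 1 lay within the control range and the groups overlapped. CDK6 was called lower (log2 fold change -0.25, SE 0.092; adjusted p = 0.0339), but the size of the change depended on single treated libraries. Without treated library 3 the value was -0.15 (adjusted p = 0.0901), and without treated library 1 it was -0.40 (adjusted p = 0.000221). The call was also lost, at values close to that of all libraries, without control library 1 (-0.22, adjusted p = 0.137), control library 3 (-0.26, adjusted p = 0.0763) or treated library 2 (-0.21, adjusted p = 0.113). Scaling by library totals gave -0.21 (adjusted p = 0.0778).

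CDK2 (ENSG00000123374, chromosome 12, 55966769 to 55972784), the kinase of cyclins E and A that drives entry into and passage through S phase, fell most of CDK2, CDK4 and CDK6. It had 26.98, 25.98 and 25.39 FPKM in control libraries and 17.18, 17.00 and 15.43 in treated ones. All treated values lay below all control values, as in 25.4% of all tested genes, with a wide gap between the groups. The log2 fold change was -0.70 (SE 0.059; adjusted p = 3.21e-07), and it ranged from -0.73 to -0.63 over 16 alternatives, past the threshold in each. On the opposite strand of CDK2, AC025162.1 shares 565 exon bases with it (14.5%) and had 0 counts in every library, and PMEL shares 89 and had 27 to 48 counts.

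The summed level of the 3 kinases was 78.5 ± 1.0 FPKM in controls and 75.4 ± 0.1 in treated cells (SD, n = 3 each). Every treated sum (75.3 to 75.5) lay below every control sum (77.5 to 79.4). CDK2 made up 33.3% ± 0.8 of that sum in controls and 21.9% ± 1.3 in treated cells. The share of CDK4 was 57.4% ± 1.0 against 69.7% ± 2.6, and that of CDK6 was 9.31% ± 0.31 against 8.38% ± 1.48 (SD, n = 3 each). Ratios of 2 genes within a library do not depend on the scaling between libraries, and 6 such ratios were compared. CDK2 to CDK4 was 0.602, 0.583 and 0.555 in control libraries and 0.339, 0.325 and 0.283 in treated ones, a 1.84-fold fall with no overlap. The exact 2-sided permutation test gave p = 0.1, the smallest that 3 against 3 libraries allow (0.2 after Benjamini-Hochberg adjustment over the 6 ratios), so no ratio could pass 0.05. CDK4 to CDK6 rose from 6.17 ± 0.28 to 8.51 ± 1.72 (SD, n = 3 each; exact permutation p = 0.1), with treated library 1 at 6.70, close to the highest control at 6.39.

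**Figure D2:**
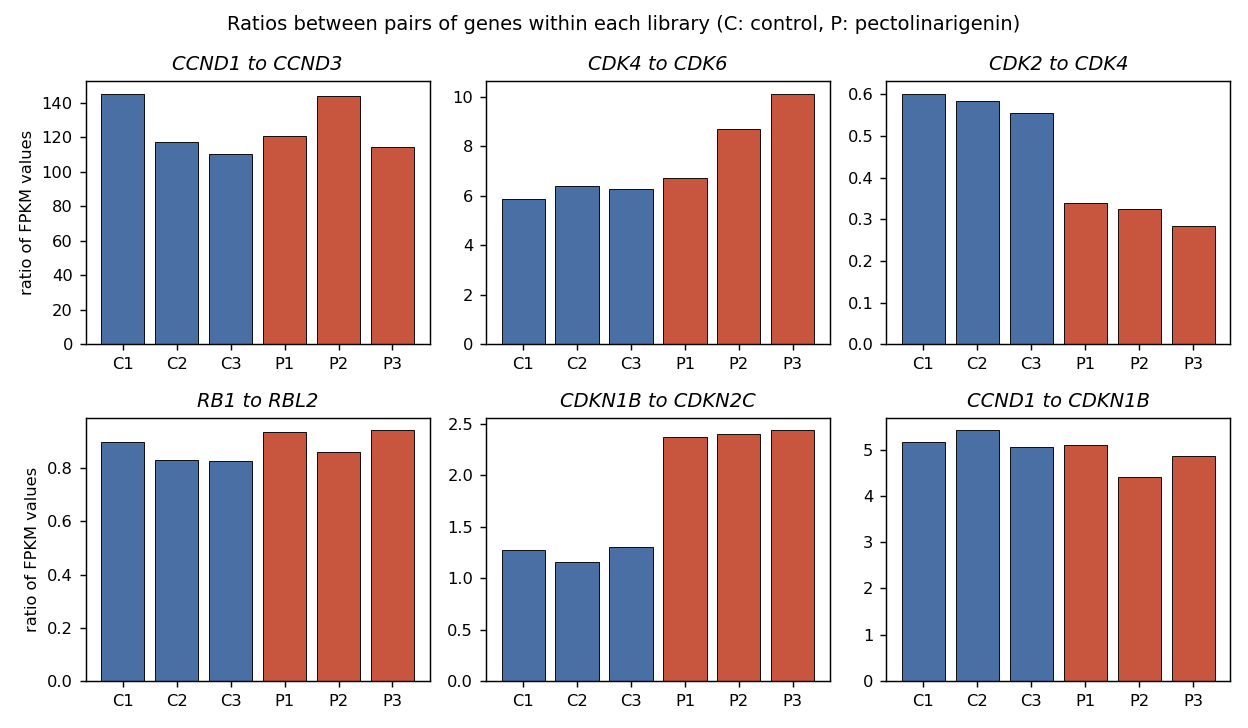
Ratio of FPKM values (y axis, from 0) for 6 pairs of genes, with 1 bar per library (C1 to C3 control, P1 to P3 pectolinarigenin). CDK2 to CDK4 is lower and CDKN1B to CDKN2C higher in all 3 treated libraries, while CCND1 to CCND3, RB1 to RBL2 and CCND1 to CDKN1B overlap between the groups.

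Inhibitors of the kinases moved apart. CDKN2B (ENSG00000147883, chromosome 9, 22002903 to 22009363) encodes p15, an INK4 inhibitor known as a target of TGF-beta signalling. It had 2.54, 2.43 and 2.59 FPKM in control libraries (157 to 189 counts) and 5.65, 5.08 and 6.39 in treated ones (331 to 519 counts). The lowest treated value was nearly double the highest control value. The log2 fold change was 1.15 (SE 0.11; adjusted p = 7.45e-07), with 1.05 without treated library 3 and 0.93 to 1.23 over 15 alternatives, all past the threshold. Its paralogue CDKN2A shares similar sequence, so the division of reads between them is uncertain. The antisense gene CDKN2B-AS1, which spans CDKN2B but shares 0 of its exon bases in GENCODE 29, had 135, 126 and 88 counts in control and 145, 139 and 176 in treated libraries. It was under the expression minimum, and with no filter its log2 fold change was 0.38 (SE 0.14; adjusted p = 0.0262).

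CDKN2C (ENSG00000123080, chromosome 1, 50960745 to 50974633) encodes p18, an INK4 inhibitor of the same kinases. It went the other way, with 12.6, 13.3 and 12.6 FPKM in control libraries and 7.88, 8.46 and 8.01 in treated ones. Control and treated values were far apart, and each group varied little. The log2 fold change was -0.70 (SE 0.071; adjusted p = 1.88e-06) and ranged from -0.72 to -0.60 over 16 alternatives, past the threshold in each.

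The sequences just upstream of these 2 INK4 genes, whose RNAs changed in opposite directions, are shown. Both come from RefSeq (GRCh38.p14), are written 5′ to 3′ on the gene's own strand and leave out annotated exons. Windows of CDKN1B and CDK4 and the other windows of CDKN2C are not shown, since too few of their upstream bases lay together outside annotated exons. Capitals mark the GC box GGGCGG on either strand. The CDKN2B stretch is chr9:22009364-22009555 on the minus strand and ends 59 bases before the start site, and the CDKN2C stretch is chr1:50960495-50960744 on the plus strand and runs up to the first of its 3 listed start sites.
CDKN2B: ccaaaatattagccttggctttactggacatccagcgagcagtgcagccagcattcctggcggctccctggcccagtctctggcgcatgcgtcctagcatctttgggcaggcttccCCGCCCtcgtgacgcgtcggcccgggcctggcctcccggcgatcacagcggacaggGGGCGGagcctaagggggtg
CDKN2C: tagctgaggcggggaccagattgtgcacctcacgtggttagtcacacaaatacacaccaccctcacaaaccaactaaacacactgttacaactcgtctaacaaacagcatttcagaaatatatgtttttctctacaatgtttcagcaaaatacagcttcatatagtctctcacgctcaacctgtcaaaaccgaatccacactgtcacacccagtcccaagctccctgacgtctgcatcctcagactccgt
The CDKN2B stretch holds 2 GC boxes and the CDKN2C stretch 0, although the window at the second CDKN2C start site holds 6. Gene-level counts do not show which start site was used.

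Of the 10 genes all but CDK2 and CCND1, 8 in all, had promoter windows in the RefSeq table (250 bases before to 50 after each start site), 14 windows in all. The E2F motif TTTNNCGC, searched on both strands, was in 0 of the 14, against 6.89% of all 35116 windows in the table and 10 of 20 windows of the E2F target genes, of which 13 of 16 had a window. The cell cycle homology region TTTGAA was in 1 of 14 windows, that of RBL2, and in 15.2% of all windows. GGGCGG was in 9 of 14 and in 45.0% of all. Matches of different motifs may overlap. Some windows lie at start sites inside the annotated gene, among them those of RB1, CDK4 and CDKN1B. These counts describe letters in a window and say nothing of binding.

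The 4 INK4 genes were also compared as a group. Their summed level was 34.0 ± 2.1 FPKM in controls and 31.2 ± 0.5 in treated cells (SD, n = 3 each). CDKN2B made up 7.42% ± 0.43 of the sum in controls and 18.3% ± 2.2 in treated cells, and CDKN2C 37.8% ± 2.8 and 26.0% ± 0.6 (SD, n = 3 each). CDKN2A, which encodes p16, held the largest share in treated libraries (42.8% ± 1.1) and did not pass the test (log2 fold change -0.064, SE 0.076; adjusted p = 0.509). Gene-level counts do not show which CDKN2A transcripts were present, so its share may not be that of p16 RNA alone. The value for CDKN2D, which encodes p19, was -0.38 (SE 0.17; adjusted p = 0.0763) and did not pass either.

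**Figure D3:**
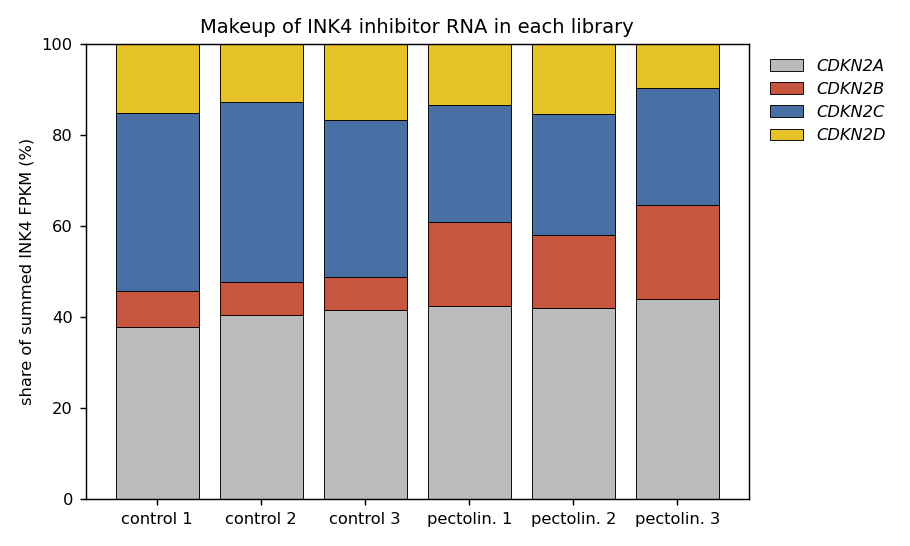
Share of summed INK4 FPKM (y axis, percent) held by CDKN2A, CDKN2B, CDKN2C and CDKN2D, with 1 stacked bar per library. In every treated library the CDKN2B band is wider (16.0% to 20.5%, against 7.13% to 7.92% in controls) and the CDKN2C band narrower.

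CDKN1B (ENSG00000111276, chromosome 12, 12715058 to 12722371) encodes p27, a CIP/KIP inhibitor that binds CDK2 complexes. It had 16.1, 15.4 and 16.3 FPKM in control libraries and 18.7, 20.3 and 19.5 in treated ones, with no overlap. It rose 1.19-fold (log2 fold change 0.26, SE 0.056; adjusted p = 0.00137) and passed in 16 of 16 alternatives (0.23 to 0.29). CDKN1B to CDKN2C, the ratio of an inhibitor that rose to one that fell, went from 1.24 ± 0.08 to 2.40 ± 0.03 (SD, n = 3 each; exact permutation p = 0.1). The ratio of CCND1 to CDKN1B was 5.22 ± 0.18 in controls and 4.79 ± 0.35 in treated cells (SD, n = 3 each), and its groups overlapped (exact permutation p = 0.2). The size of both ratios depends on the gene lengths behind the FPKM values, while their fold change between the groups does not. In control library 1 CCND1 had 7352 counts and CDKN1B 2769, and GENCODE 29 gives them 4830 and 2811 exon bases. Among the other CIP/KIP genes CDKN1A, which encodes the p53 target p21, had 7.97 ± 0.74 FPKM in controls and 4.98 ± 0.63 in treated cells (SD, n = 3 each) and fell by 0.71 on the log2 scale (SE 0.11; adjusted p = 5.78e-05). CDKN1C was near the expression minimum and did not pass (-0.13, SE 0.20; adjusted p = 0.638).

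Of the pocket proteins RBL2 and RBL1 fell and RB1 did not pass. RB1 (ENSG00000139687, chromosome 13, 48303726 to 48599436), the retinoblastoma protein that restrains E2F factors, had 15.3, 13.8 and 13.6 FPKM in control libraries and 14.0, 13.4 and 12.7 in treated ones. The groups overlapped, and the difference did not pass (log2 fold change -0.13, SE 0.063, 95% interval for this gene alone -0.27 to 0.0035; adjusted p = 0.0965). It was -0.075 without control library 1 and -0.17 without control library 3. None of the 16 alternatives brought it past the threshold (adjusted p from 0.0501 to 0.368).

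RBL2 (ENSG00000103479, chromosome 16, 53433977 to 53491649) encodes p130, the pocket protein of quiescent cells and of the DREAM repressor complex. It had 17.11, 16.65 and 16.44 FPKM in control libraries and 14.99, 15.56 and 13.51 in treated ones. All treated values were below all control values, with treated library 3 the lowest. RBL2 fell by 14.6% (log2 fold change -0.23, SE 0.059; adjusted p = 0.00494) and passed in 16 of 16 alternatives. AKTIP, on the opposite strand, shares 610 of its exon bases (8.33%) and rose (log2 fold change 0.40, SE 0.13; adjusted p = 0.0160). The remaining pocket protein, RBL1 or p107, had 4.14 ± 0.07 FPKM in controls and 3.27 ± 0.28 in treated cells (SD, n = 3 each) and fell by 0.38 on the log2 scale (SE 0.087; adjusted p = 0.00215). RB1 to RBL2 was 0.851 ± 0.039 in controls and 0.913 ± 0.046 in treated cells (SD, n = 3 each), and its groups overlapped (exact permutation p = 0.2).

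**Figure D4:**
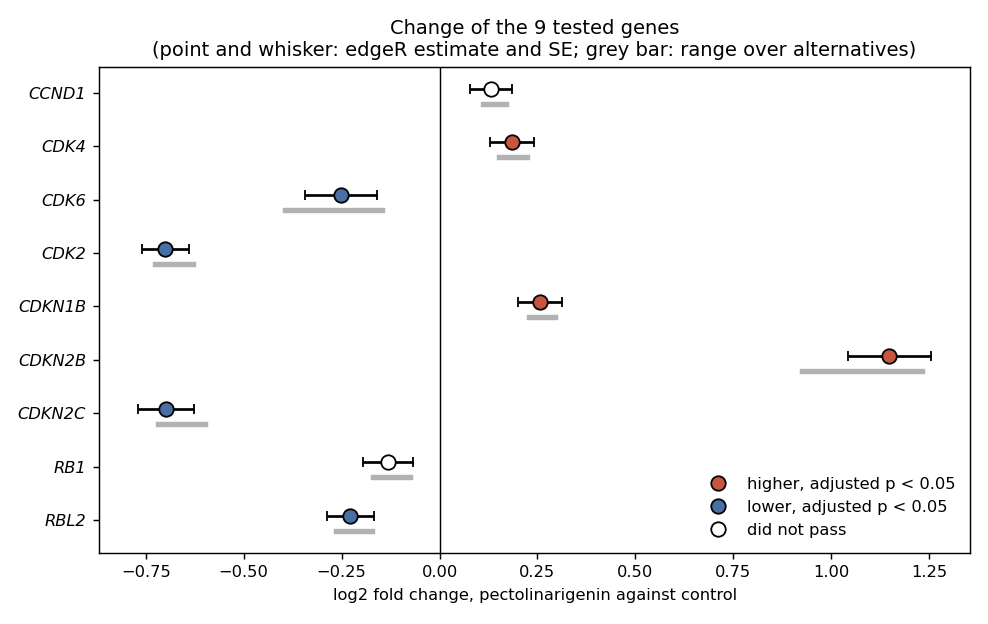
Log2 fold change (x axis, treated against control) of the 9 tested genes with SE, and in grey the range over the alternatives. CDKN2B stands at 1.15 and CDK2 and CDKN2C at -0.70, while the other 6 lie between -0.25 and 0.26.

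By deposited FPKM, CCND1 was the highest of the 10 in both groups (83.0 ± 0.3 and 93.3 ± 3.4 FPKM), followed by CDK4 (45.0 ± 0.6 and 52.5 ± 1.9, SD, n = 3 each). In controls CDK2, RBL2, CDKN1B, RB1, CDKN2C, CDK6, CDKN2B and CCND3 followed, and no neighbours in that order overlapped over the 3 libraries. In treated cells CDKN1B stood ahead of CDK2 and RBL2, both of which it followed in controls. CDK2 and RBL2, RBL2 and RB1, and CDK6 and CDKN2B then overlapped with each other. CDKN2B was well below CDK6 in controls (2.52 ± 0.08 against 7.30 ± 0.34 FPKM) and overlapped with it in treated cells (5.71 ± 0.66 against 6.32 ± 1.13 FPKM; SD, n = 3 each). The place of CDKN1B in this order depends on the gene length behind its FPKM. In each library CDKN1B had more counts than CDK4 (2285 to 2769 against 2143 to 2581 in controls). In GENCODE 29 it also has fewer exon bases (2811 against 3168), so on those lengths it would stand above CDK4 in both groups.

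The rest of the G1 network was examined by lists. Over all tested genes 25.3% were called higher and 25.3% lower, 50.6% in all. Cyclin E1, the main cyclin of CDK2 at the G1/S boundary, did not pass (CCNE1, 7.57 ± 0.31 FPKM in controls and 7.47 ± 1.12 in treated cells, SD, n = 3 each; adjusted p = 0.736). CCNE2 had 1.78 ± 0.24 FPKM in controls and 1.26 ± 0.02 in treated cells (SD, n = 3 each) and fell by 0.53 on the log2 scale (SE 0.14; adjusted p = 0.00443). Of 6 genes of the CDK-activating kinase, the CDC25 phosphatases and WEE1, 3 rose: CDK7 (0.29, SE 0.077), MNAT1 (0.20, SE 0.069) and CDC25B (0.21, SE 0.064). WEE1, which puts an inhibitory phosphate on CDKs, fell (-0.32, SE 0.062). The number that rose was 1 without control library 1 and 1 without treated library 2.

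Factors of the E2F and DP family were divided, with 4 of 10 higher and 5 lower, or 90% called against 50.6% of all tested genes. E2F4 (0.61, SE 0.10), E2F6 (0.50, SE 0.083) and E2F5 (0.37, SE 0.081), known mainly as repressors, and E2F3 (0.22, SE 0.067), known as an activator, rose on the log2 scale. E2F8 had 8.10 ± 0.26 FPKM in controls and 3.68 ± 0.36 in treated cells (SD, n = 3 each), a log2 difference of -1.18 (SE 0.086), and E2F2 (-1.04, SE 0.11) and the partner TFDP2 (-0.73, SE 0.087) fell too; E2F8 is known as a repressor and E2F2 as an activator. The activator E2F1 fell by 0.32 (SE 0.063) on the log2 scale, and the repressor E2F7 by 0.79 (SE 0.14), so that both kinds were found in both directions. E2F1, E2F3 and E2F7, and SKP2 and CKS1B further on, were named after their values were seen. In the MuvB and DREAM core LIN54 (0.25, SE 0.072) and LIN9 (0.22, SE 0.078) rose, RBBP4 fell (-0.31, SE 0.054) and 3 of 6 did not pass. The share called, 50%, was close to the 50.6% over all tested genes. With control library 1, 2 or 3 left out, 1 of the 6 was called higher each time.

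Genes of the ubiquitin ligases that act on p27 or on G1 cyclins were mixed, with 3 of 14 higher, 5 lower and 6 not passing. The share called, 57.1%, was close to the 50.6% over all tested genes. Without treated library 3, 4 were higher and 6 lower. FBXW7, which targets cyclin E (0.38, SE 0.069), CUL1, a cullin scaffold (0.29, SE 0.054), and UBAC1 (0.24, SE 0.062) rose. CUL4B (-0.40, SE 0.056), DDB1 (-0.36, SE 0.054) and DTL (-0.43, SE 0.065), parts of the CUL4 ligase, fell. SKP2, the F-box protein that directs p27 to degradation, and its cofactor CKS1B changed by -0.31 (SE 0.067; adjusted p = 0.00148) and -0.29 (SE 0.059; adjusted p = 0.00096).

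Of 16 E2F target genes of S phase entry 14 fell and 0 rose, with a median log2 fold change of -0.51. Over all tested genes 25.3% were called lower. The E2F target list includes genes already known to fall in these data, such as MCM4, UHRF1 and RRM2. CCNA2, the S-phase partner of CDK2 (0.0069, SE 0.056; adjusted p = 0.929), and MCM7 (-0.0061, SE 0.055; adjusted p = 0.936) did not pass. Of 13 transcription factors known to act on the D cyclin, p27 or INK4 genes 3 rose and 4 fell. The share called, 53.8%, was close to the 50.6% over all tested genes. Without treated library 3, 4 rose and 4 fell. MYC (1.62, SE 0.11), FOXO1 (0.64, SE 0.086) and the Polycomb protein BMI1 (0.49, SE 0.075) rose, and SP1 (-0.70, SE 0.068), SMAD4 (-0.31, SE 0.058) and FOXO4 (-0.48, SE 0.11) fell.

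**Figure D5:**
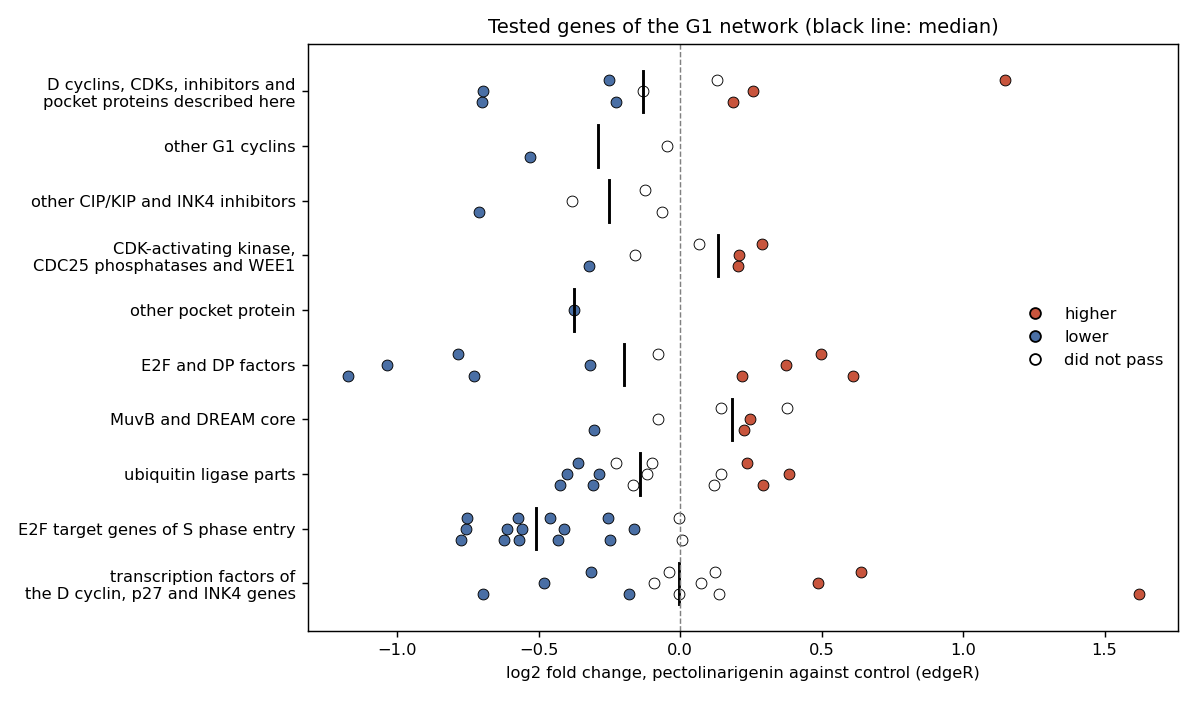
Log2 fold change (x axis, treated against control, edgeR) of every tested gene of the G1 network, by list, with red for higher, blue for lower, white for did not pass and a black line at the median. The E2F target genes lie to the left, with a median of -0.51, and the E2F and DP factors spread from -1.18 to 0.61.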

How the data were processed

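RNA was measured in 6 libraries of Huh-7 cells. The authors deposited 1 table with raw counts per gene, whole numbers that were not normalized, and FPKM values, which per the file headers and the values scale each count by library total and gene length. The submitters' processing notes name cutadapt 1.9.1, HISAT2 2.0.1, HTSeq 0.6.1 and GRCh38; no source used here gives the annotation release or the strand setting. Groups came from the sample titles. The members and lists were chosen with earlier results of these data known.

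From the counts, edgeR 4.0.16 (R 4.3.3; quasi-likelihood test, TMM factors, no covariate, 2-sided) tested the 12829 genes with a mean FPKM of at least 1, with Benjamini-Hochberg adjustment over all of them and a threshold of 0.05. SEs came from the F statistic. The genes named are the 10 described, all other G1 cyclins, inhibitors and pocket proteins, and up to 3 called genes with the smallest p in each direction of each list, unless stated. Ratios of FPKM were compared by exact permutation. On simulated counts for this comparison 85 of 100 genes changed 1.5-fold and 96 of 100 changed 2-fold were recovered, and 8 of the unchanged genes were called. The simulation gave all genes and both groups the same spread between libraries and changed far fewer genes than were called here. These figures therefore hold for that setting and may not hold for the data. Libraries within a group did not agree within sampling noise. Chi-square per degree of freedom was 1.53 to 2.73 between control libraries and 4.51 to 11.1 between treated libraries. Alternatives used DESeq2 1.42.0, limma 3.58.1, other scalings and filters, a replicate block, and each library left out. Positions are from GENCODE 29 (GRCh38).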

Additional observations from a re-analysis of the deposited data

How the results depend on the processing

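The calls of CDK2, CDKN1B, CDKN2C and RBL2 were kept in 16 of 16 alternatives and that of CDKN2B in 15 of 15. CCND1 passed with library totals (0.17), with no expression filter (0.15), with filterByExpr (0.15) and in limma with 1 FPKM (0.17) or 0.1 FPKM (0.17) added. CDK6 did not pass with library totals (-0.21) or in limma with 1 FPKM (-0.19) or 0.1 FPKM (-0.22) added. Without single libraries the log2 fold change was 0.11 to 0.17 for CCND1, 0.15 to 0.21 for CDK4 and -0.40 to -0.15 for CDK6. With 1 FPKM added, the log2 difference of the ratio of CDKN1B to CDKN2C was 0.88 against 0.95. That of CCND1 to CCND3 was -0.070 to 0.15 without single libraries, so it has no stable sign. At a mean FPKM of at least 5, 0 of the other G1 cyclins, 0 of the other pocket protein, 3 of the E2F and DP factors and 2 of the regulating transcription factors were lower, since fewer genes were tested. With library totals 5 ubiquitin ligase genes were higher. Without single libraries 1 to 2 of the other inhibitors were lower (2 without control library 2 or treated library 2), 1 to 3 genes of the activating kinase list higher and 1 to 2 lower (2 without control library 2), and 1 to 3 MuvB genes higher. Where not stated, the cause was not tested. The same-numbered libraries of the 2 groups did not deviate together (correlations -0.0069, 0.025 and -0.012). With the replicate number as a block CDK2 stood at -0.70, CDKN2B at 1.14 and CDK6 at -0.26, and 3 of the 10 genes were higher and 4 lower, as without it. Scaling by library totals moved the median of all tested genes to 0.038 and the share of higher calls from 50% to 56.9%.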

Other observations

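Other cyclin-dependent kinases and cyclins were counted by symbol, chosen after the results above were seen. Of 14 further tested CDK genes 3 were higher and 4 lower, with a median log2 fold change of -0.058. These shares were close to those over all tested genes, of which 25.3% were called higher and 25.3% lower. CDK1, the mitotic kinase, had 49.8 ± 2.3 FPKM in controls and 29.5 ± 1.5 in treated cells (SD, n = 3 each) and fell by 0.79 on the log2 scale (SE 0.062; edgeR adjusted p = 1.38e-07). CDK18 (-0.53, SE 0.070), CDK12, a kinase of transcription elongation (-0.42, SE 0.059), and CDK16 (-0.27, SE 0.056) fell as well. CDK19, a kinase of the Mediator complex, rose (0.27, SE 0.061), as did the near-identical pair CDK11A (0.64, SE 0.13) and CDK11B (0.22, SE 0.077), whose reads may be divided wrongly between them.

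Of 16 further tested cyclin genes 7 were higher and 1 lower, with a median of 0.11. Over all tested genes 25.3% were called higher and 25.3% lower. The mitotic cyclin CCNB1 had 70.5 ± 0.4 FPKM in controls and 96.3 ± 3.4 in treated cells (SD, n = 3 each) and rose by 0.41 on the log2 scale (SE 0.054; edgeR adjusted p = 1.99e-05). CCNJ (0.63, SE 0.068), CCNL1 (0.33, SE 0.080) and CCNT2 (0.25, SE 0.058) were among the others that rose. CCNF, an F-box protein that acts in S and G2 phase, was the 1 that fell (-0.58, SE 0.068).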
